A study of Mus musculus with 8 samples.

Results

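The mouse genes C2cd4a, C2cd4b, Tcf7l2, Cdkal1, Igf2bp2, Hhex, Jazf1, Adcy5 and Wfs1 carry the names of human type 2 diabetes risk loci. They were taken by name from the table of 15985 gene symbols, where all 9 were present, and all 9 passed the filter on low values that left 15960 genes for testing. The study asked what loss of the transcription factor Sox9 from pancreatic beta cells does to islets, and measured bulk RNA of whole islets from 4 knockout mice (KO1 to KO4) and 4 controls (WT1 to WT4), all from a mixed strain and 13 to 16 months old. The knockouts carried Ins-Cre;Sox9fl/fl, in which the insulin promoter drives Cre, so that the deletion is aimed at beta cells, while whole islets also hold other cells. The controls carried no Cre, and their Sox9 alleles differed: WT1 was Sox9fl/fl, WT2 Sox9fl/+, WT3 Sox9+/+ and WT4 Sox9+/fl. Every knockout carried Cre and no control did, so effects of Cre itself and of Sox9 deletion cannot be told apart.

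Common variants near these genes raise the risk of type 2 diabetes in people, and many act through the insulin-secreting beta cell. C2CD4A and C2CD4B are small proteins that move to the nucleus and were first known as genes induced by inflammatory cytokines in human endothelial cells. In mouse beta cells C2cd4a is a target of the transcription factor Foxo1. The other genes act at separate steps: TCF7L2, HHEX and JAZF1 in transcription, IGF2BP2 and CDKAL1 on messenger and transfer RNA, ADCY5 in cyclic AMP signalling and WFS1 in the endoplasmic reticulum.

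The values are estimated reads per gene after scaling by a size factor per library, called normalized values below. From the steps between low values, a single read was worth 0.657 to 1.37 in these units, and the libraries held 11.0 (KO1) to 26.2 (WT2) M reads as estimated from these steps. Ins2 took 20.6 to 28.6% of the summed values, and none of the 14 beta cell markers was at 0 in any library. Sox9 itself was at 13.3 to 37.3 in the controls and 11.7 to 36.6 in the knockouts (log2 fold change -0.02, SE 0.44, adjusted p = 0.989), so its summed value per gene did not separate the genotypes. The study deleted some exons of the gene and reported much less Sox9 in islets of such knockouts by quantitative PCR. By in situ hybridization it reported Sox9 RNA lost from insulin-positive cells and present in ducts. WT2 and WT3 stood apart from the other controls. In WT3 the summed value of 4 Y-linked genes was 117, against 2367 to 2712 in the other 7 libraries, although the methods name male mice. In WT2 all 16 acinar markers were at their lowest control value. The pair C2cd4a and C2cd4b is given with and without either control, and a call that a gene list gained without WT2 is given beside that list.

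C2cd4b and C2cd4a lie beside each other on chromosome 9 (GRCm38), at positions 67759437 to 67760930 on the plus strand and 67830489 to 67832330 on the minus strand. Each has 1 annotated transcript of 2 exons, with 1327 and 1395 exonic bases, and 69558 bases separate them. All 9 genes have a promoter window in the RefSeq table (GRCm38.p6), which runs from 250 bases before the start of transcription to 50 bases after it. The windows of this pair are shown because theirs were the only values among the 9 genes that did not overlap between genotypes. They are written 5′ to 3′ on the strand of the gene, and capitals mark each match to TATAA (the core of a TATA box) and TGACG (a core part of the cyclic AMP response element), both searched on both strands.
C2cd4b, chr9:67759187-67759486, plus strand: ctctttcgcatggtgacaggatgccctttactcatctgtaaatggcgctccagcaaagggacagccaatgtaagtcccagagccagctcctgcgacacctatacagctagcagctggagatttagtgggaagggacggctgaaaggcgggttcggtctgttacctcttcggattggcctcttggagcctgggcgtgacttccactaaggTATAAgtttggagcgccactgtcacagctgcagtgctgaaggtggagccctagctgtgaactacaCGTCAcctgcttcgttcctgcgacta
C2cd4a, chr9:67832281-67832580, minus strand: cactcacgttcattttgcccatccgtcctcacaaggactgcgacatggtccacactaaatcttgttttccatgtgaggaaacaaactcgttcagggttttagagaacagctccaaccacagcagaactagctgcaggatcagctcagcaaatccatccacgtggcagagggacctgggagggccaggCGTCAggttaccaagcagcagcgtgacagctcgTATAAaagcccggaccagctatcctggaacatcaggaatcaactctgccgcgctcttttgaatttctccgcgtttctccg
A forward TATAA began 41 bases before the start in C2cd4b and 30 bases before it in C2cd4a. A forward TATAA beginning 60 to 20 bases before the start was found in 4.89% of all 32851 windows. TGACG occurred once in each, on the reverse strand, at 63 to 59 bases before the start of C2cd4a and past the start in C2cd4b. Of all windows 24.9% held TATAA, 20.8% held TGACG and 3.67% held both. Neither window held the full element TGACGTCA, which contains TGACG (1.79% of windows), the AP-1 motif TGANTCA (7.81%), the forkhead motif GTAAACA (3.65%) or the Sox motif ACAATGG (3.66%). The C2cd4a window held the E-box CACGTG (7.15%). All were searched on both strands, and these matches are a description of the letters only.

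C2cd4a had normalized values of 445, 1066, 362 and 421 in WT1 to WT4, and 1560, 1506, 2258 and 1711 in KO1 to KO4. WT2 stood far above the other 3 controls and still below every knockout, so the groups did not overlap; the lowest knockout was 1.41 times the highest control. The mean was 574 ± 330 in the controls and 1759 ± 344 in the knockouts (SD, n = 4 each), a ratio of 3.07. In the fit over all genes (limma on log2 of value + 0.5, Benjamini-Hochberg) the log2 fold change was 1.74 (SE 0.32, 95% confidence interval 1.01 to 2.47), with an adjusted p of 0.116. C2cd4a was at rank 65 of 15960 genes by p, short of the threshold of 0.05.

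C2cd4b, its paralogue, was at rank 113 among all genes by mean normalized value. It had normalized values of 2310, 8628, 3569 and 2380 in WT1 to WT4, and 11809, 12603, 16504 and 13740 in KO1 to KO4. WT2 was again the highest control and the groups again did not overlap, with the lowest knockout at 1.37 times the highest control. The mean was 4222 ± 2994 in the controls and 13664 ± 2053 in the knockouts (SD, n = 4 each), a ratio of 3.24. By limma the log2 fold change was 1.91 (SE 0.40, 95% confidence interval 0.98 to 2.84, adjusted p = 0.160), and C2cd4b was at rank 145 by p.

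Non-overlap of 4 against 4 libraries, with every knockout higher, was found for 2 of the 9 genes and for 2.67% of all genes tested. At an adjusted p below 0.05 no member passed, and 0.0564% of all genes did (9 genes, with 0.0376% higher and 0.0188% lower in the knockouts). At an unadjusted p below 0.05 the same pair passed, against 10.7% of all genes (4.34% higher and 6.34% lower). The log2 fold change was positive for 6 of the 9 and for 44.9% of all genes. For each gene of the pair, the exact two-sided permutation test over the 70 assignments of libraries gave p = 0.0286. This is the smallest p the test can give, and groups without overlap always give it. It therefore restates the non-overlap and adds no evidence. The exact two-sided permutation test for the other members gave p = 0.114 (Igf2bp2) to p = 0.686 (Wfs1). In bulk islets a change in the share of a cell type and a change of RNA per cell cannot be told apart.

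**Figure D1:**
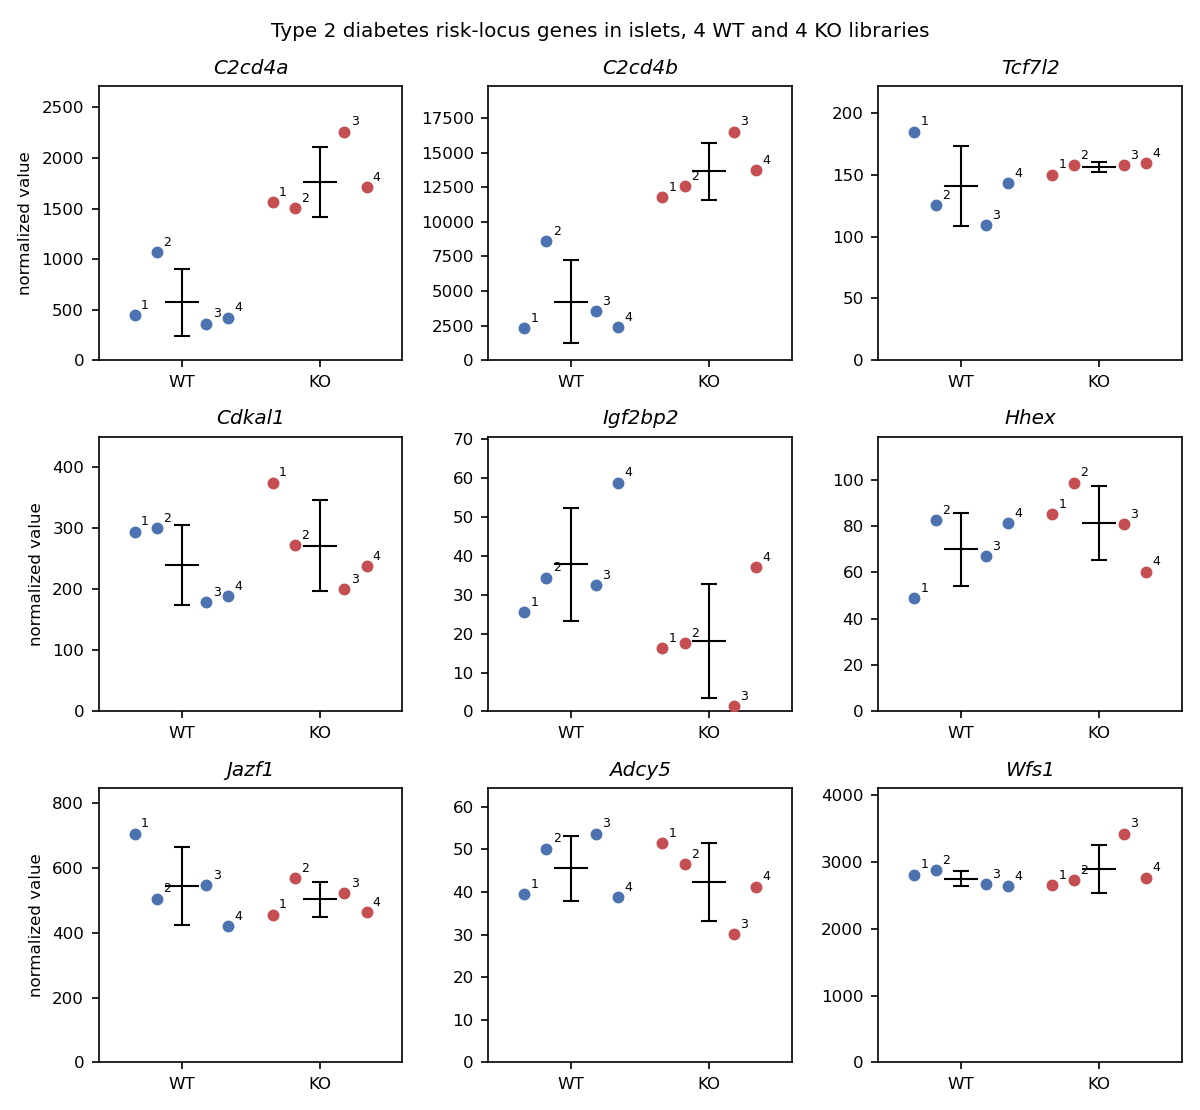
Normalized values (linear axis from 0) of each of the 9 genes in 4 control (WT, blue) and 4 knockout (KO, red) libraries, numbered by replicate, with the mean and SD in black. C2cd4a and C2cd4b lie higher in every knockout than in any control, and the other 7 genes overlap.

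The test of the pair turned on WT2. Without it, C2cd4a rose by 2.09 on the log2 scale (SE 0.15) and C2cd4b by 2.33 (SE 0.18), both at an adjusted p of 2.14e-04 by limma, or 4.25 and 5.02 times. They were at ranks 1 and 3 of all genes by p. That fit called 0.363% of all genes (58 genes), with 0.294% higher in the knockouts. None of the other 7 genes passed without WT2 (adjusted p = 0.539 to 0.956). WT2 was the highest control for both genes of the pair, so leaving it out had to raise both fold changes. These values are therefore no support for a difference. The same holds below for other genes higher in the knockouts with WT2 as their highest control. With any other library left out, neither gene passed by limma (adjusted p = 0.160 to 0.280 for C2cd4a and 0.199 to 0.363 for C2cd4b). Without WT3, the library low in Y-linked genes, the log2 fold change was 1.57 for C2cd4a (SE 0.33, adjusted p = 0.20) and 1.90 for C2cd4b (SE 0.48, adjusted p = 0.332). With log2 depth as a covariate C2cd4a passed (log2 1.98, SE 0.24, adjusted p = 0.0207) and C2cd4b did not (2.11, SE 0.40, adjusted p = 0.118).

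**Figure D2:**
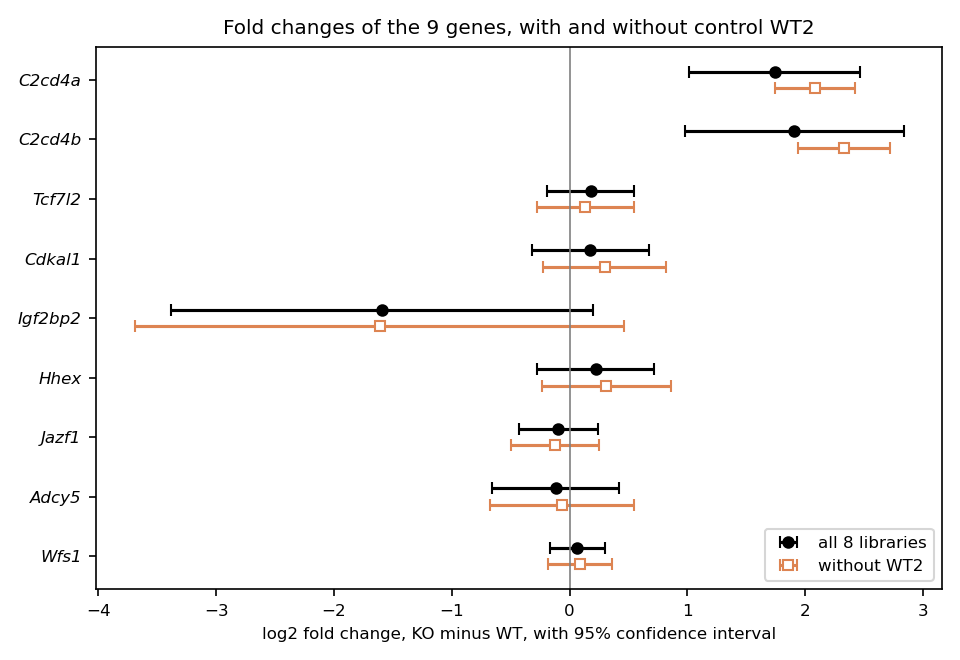
Log2 fold change of each gene (knockout minus control) with its 95% confidence interval, from all 8 libraries (black circles) and without control WT2 (orange squares). The intervals of C2cd4a and C2cd4b lie above 0 in both fits and narrow without WT2, and the intervals of the other 7 genes include 0 in both.

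WT2 was also the control with the highest values of immediate early genes, the rapidly induced transcripts of stimulated or stressed cells. Of 23 such genes tested, WT2 was the highest control for 21, against 23.9% of all genes tested. Their summed normalized value was 70487, 201327, 120981 and 74190 in WT1 to WT4, and 280562, 241855, 425578 and 310242 in KO1 to KO4. The controls ranked in the same order as for C2cd4b, and KO3 was highest both for the sum and for each gene of the pair. None of the 23 passed the adjusted threshold by limma with all 8 libraries. At p below 0.05, 20 were higher in the knockouts and 0 lower, against 4.34% and 6.34% of all genes. The median log2 fold change was 1.33 against -0.03 over all genes. Klf6, a zinc-finger transcription factor (log2 1.33, SE 0.20, adjusted p = 0.0526), Fosb, a subunit of AP-1 (1.33, SE 0.27, 0.129), and Dusp1, a phosphatase of MAP kinases (2.63, SE 0.51, 0.152), had the smallest p among them. Without WT2, 11 of the 23 passed, all higher in the knockouts, against 0.294% of all genes. The part of this shared pattern in the result for C2cd4a and C2cd4b was not tested.

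Acinar markers, which mark the digestive tissue around islets, also differed between libraries. All 16 had a positive log2 fold change (median 0.95), none passed the adjusted threshold by limma and 1 had p below 0.05, and their summed value was 36307 to 185791 in the controls and 97706 to 265801 in the knockouts. None of the 16 was at 0 in a library. With the acinar level as a covariate the log2 fold change was 2.02 for C2cd4a (SE 0.36, adjusted p = 0.157) and 2.45 for C2cd4b (SE 0.33, adjusted p = 0.128). The 10 endothelial markers, of a cell type in which human C2CD4 genes respond to cytokines, had summed values of 7125 to 12653 in the controls and 11091 to 14433 in the knockouts, with 0 past the adjusted threshold by limma and 2 at p below 0.05, both higher. The 14 beta cell markers had 5 positive and 9 negative log2 fold changes, with 3 higher and 0 lower at p below 0.05. The groups did not overlap for 2 of them, both higher. Of the 9 alpha cell markers 7 were negative, with 0 higher and 2 lower at p below 0.05. All 10 endothelial and all 9 mesenchymal markers were positive, the latter with 0 at p below 0.05. None of these markers passed the adjusted threshold by limma. Over all genes 10.7% had p below 0.05 (4.34% higher and 6.34% lower), 44.9% were positive and 2.67% were higher without overlap. The part of these cell types in the result was not tested.

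**Figure D3:**
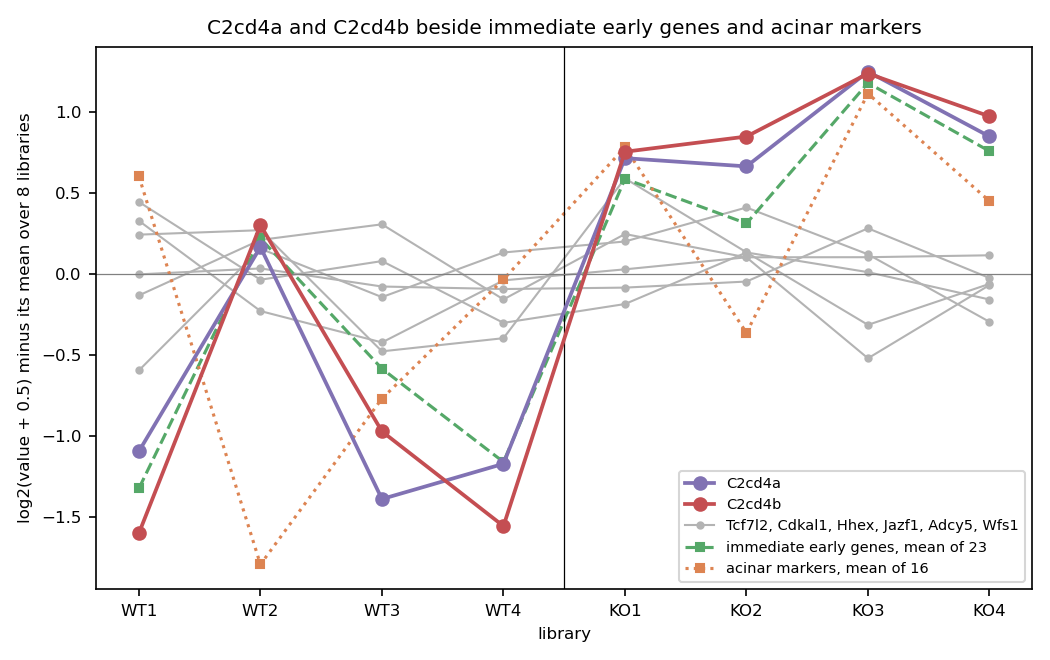
Level of C2cd4a, C2cd4b and the other genes except Igf2bp2 in each library, as log2 of value + 0.5 minus the mean over 8 libraries, beside the mean of 23 immediate early genes (green) and of 16 acinar markers (orange). Lines join the points of a gene and imply no order of libraries; WT2 is the highest control for C2cd4a, C2cd4b and the immediate early genes and the lowest for the acinar markers.

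The ratio within a library is free of any scaling of that library. The ratio of C2cd4b to C2cd4a in normalized value, not divided by length, was 5.19, 8.09, 9.85 and 5.65 in WT1 to WT4 and 7.57, 8.37, 7.31 and 8.03 in KO1 to KO4. The knockout ratios lay inside the range of the control ratios and varied less. The log2 ratio was 2.80 ± 0.43 in the controls and 2.96 ± 0.09 in the knockouts (SD, n = 4 each), a difference of 0.17 (exact two-sided permutation test, p = 0.457).

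The sequence of the pair limits how far their reads can be separated. In the GENCODE annotation of GRCm38, 247 of the 1365 stretches of 31 bases in the C2cd4a transcript also occur in C2cd4b, whose transcript holds 1297. A noncoding gene on the opposite strand, M5C1000I18Rik, overlaps 627 of the 1327 exonic bases of C2cd4b (47.2%). Read on either strand, 790 of the 1297 stretches of C2cd4b (60.9%) occur in C2cd4a or M5C1000I18Rik, and whether the reads were assigned by strand is not given in the sources used here. M5C1000I18Rik was not analysed here. The sum of the pair, which does not depend on how reads shared between them were split but still includes any reads of M5C1000I18Rik given to C2cd4b, was 2755, 9694, 3932 and 2802 in WT1 to WT4 and 13368, 14108, 18762 and 15451 in KO1 to KO4. Its log2 difference was 1.88 (exact two-sided permutation test, p = 0.0286). Each gene already separated the groups, so the sum had to separate them too. This p was therefore fixed in advance and adds no evidence.

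Among 11461 genes with a mean value of at least 50, the genes most like C2cd4b over the 8 libraries by Pearson r of log2 values were Fos (0.990), Egr1 (0.989), Ier2 (0.987), Btg2 (0.985) and Tra2b (0.984). Fos and Egr1 are immediate early transcription factors, Btg2 an antiproliferative gene and Tra2b a splicing factor. Those most like C2cd4a were Tra2b (0.991), Txnip (0.991), Bbc3 (0.986), Dusp1 (0.986) and Zfp677 (0.982). Txnip is a glucose-induced inhibitor of thioredoxin and Bbc3 a pro-apoptotic member of the Bcl2 family. These correlations share the 8 libraries and the difference between the groups, so they describe likeness and carry no test.

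With each group centred on its own mean, which removes that difference, the closest to C2cd4b were Tfb1m (0.977), Junb (0.967), Tra2a (0.961), Egr1 (0.960) and Fos (0.960). The closest to C2cd4a were Dnajc25 (0.975), Il1rap (0.965), Birc2 (0.963), Tra2b (0.962) and Txnip (0.956). C2cd4a and C2cd4b had r = 0.970 with each other over the 8 libraries and 0.875 after centring. Centred and without WT2 this fell to 0.17, so the likeness of the pair within the groups rested on that library. Centred and without WT2, over 7 libraries, C2cd4b had r = 0.926 with Fos and 0.819 with Egr1, while C2cd4a had 0.173 with Fos and 0.416 with Egr1. Fos and Egr1 were picked as most like C2cd4b, so this comparison favours it. With the genes picked as most like C2cd4a over the 8 libraries, C2cd4a had 0.745 (Dusp1) to 0.966 (Bbc3).

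The levels of Txnip by library were 688, 1662, 740 and 770 in WT1 to WT4 and 2182, 2381, 3497 and 2913 in KO1 to KO4. WT2 was the highest control, KO3 the highest knockout, and the groups did not overlap (log2 1.59, SE 0.28, adjusted p = 0.0979, or 5.09e-04 without WT2, by limma). Over all genes 2.67% were higher without overlap. Txnip was picked for its likeness to C2cd4a over these libraries. Its order of libraries and its difference between the groups follow from that choice and are no support.

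Genes around the pair were examined by the same fit. Of 9 other genes tested within 1 Mb of C2cd4b, 3 had a positive log2 fold change and the median was -0.18, with a range from -0.42 for Rora, a nuclear receptor, to 0.86 for Aph1c, a subunit of gamma-secretase. None passed the adjusted threshold by limma, and 3 had p below 0.05, all lower in the knockouts, against 6.34% of all genes. The groups did not overlap for 1, Rab8b, a small GTPase (log2 -0.39, SE 0.13, adjusted p = 0.312). Over all genes 3.68% were lower without overlap. Vps13c, a lipid transfer protein whose gene begins 8065 bases past C2cd4a and which shares its risk locus in people, was at -0.05 on the log2 scale (SE 0.11, adjusted p = 0.916). C2cd4c, a further member of the family, was at -0.07 (SE 0.14, adjusted p = 0.907), and Tln2, a cytoskeletal adaptor, at -0.26 (SE 0.14, adjusted p = 0.565).

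**Figure D4:**
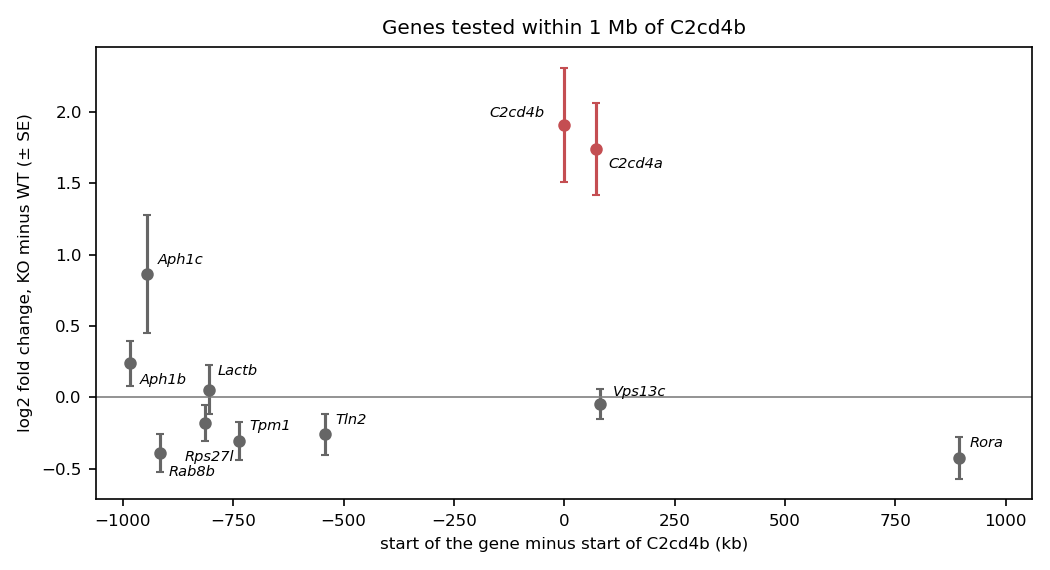
Log2 fold change (knockout minus control, ± SE) of the genes tested within 1 Mb of C2cd4b, by the distance of their start from its start in kb. C2cd4b and C2cd4a (red) stand at 1.91 and 1.74, Vps13c at -0.05 and Aph1c, the highest of the others, at 0.86.

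C2cd4a is a Foxo1 target in mouse beta cells, and 15 genes of FOXO and insulin signalling were tested beside it. None passed the adjusted threshold by limma, and the median log2 fold change was -0.11. At p below 0.05, 3 were higher and 2 lower, against 4.34% and 6.34% of all genes. Irs2, the insulin receptor substrate of the beta cell, was at 2981, 6733, 4532 and 4281 in WT1 to WT4 and 10231, 10684, 12786 and 11422 in KO1 to KO4, without overlap and again with WT2 as the highest control. Its log2 fold change of 1.34 (SE 0.20) had an adjusted p of 0.0528 with all 8 libraries and 0.0019 without WT2. Foxo3 (log2 -0.66, SE 0.16) and Cited2 (1.0, SE 0.25) followed by p. Foxo1 itself was higher in every knockout than in any control, with means of 1549 and 1232 (log2 0.33, SE 0.10, adjusted p = 0.261). Over all genes 2.67% were higher without overlap. With each group centred on its own mean, C2cd4a had r = 0.021 with Foxo1, and -0.334 without WT2. A part of Foxo1 in the values of C2cd4a was not tested.

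Of 16 inflammatory response genes, 0 passed by limma with all 8 libraries, and the median was -0.36. At p below 0.05, 1 was higher and 5 were lower, against 4.34% and 6.34% of all genes. The higher gene was Tnfaip3, an inhibitor of NF-kappa B signalling, at 786, 1777, 862 and 555 in WT1 to WT4 and 1958, 1422, 2363 and 2073 in KO1 to KO4. As for C2cd4a and C2cd4b, WT2 was its highest control and KO3 its highest knockout, but the groups overlapped. Its log2 fold change was 1.09 (SE 0.33, adjusted p = 0.299) with all libraries and 1.41 without WT2, where it passed (adjusted p = 0.0126). The cytokine genes Tnf (log2 -0.41, SE 0.11) and Ccl2 (-1.71, SE 0.66) were the other leaders by p.

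The 7 other risk-locus genes overlapped between genotypes in every case, and their adjusted p was 0.523 to 0.903. Their median log2 fold change was 0.07, with 4 positive and 3 negative. Each interval below includes 0 and gives the sizes of change that these libraries leave possible.

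Tcf7l2 encodes the transcription factor through which Wnt signals reach target genes, and its human locus carries the strongest common risk signal. Normalized values of Tcf7l2 were 185, 125, 110 and 143 in WT1 to WT4 and 150, 158, 158 and 159 in KO1 to KO4. The knockouts lay close together inside the range of the controls. On the log2 scale the difference of Tcf7l2 was 0.18 (SE 0.17, 95% confidence interval -0.19 to 0.55, adjusted p = 0.747). Of 20 TCF/LEF and Wnt genes tested, 0 passed by limma, and the median was 0.15. At p below 0.05, 1 was higher and 3 were lower, against 4.34% and 6.34% of all genes. Lgr4, a receptor for R-spondins (log2 -0.55, SE 0.17), Isl1, an islet transcription factor (0.36, SE 0.12), and Ctnnb1, beta-catenin itself (-0.34, SE 0.12), had the smallest p.

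Hhex encodes a homeodomain factor that somatostatin-producing delta cells need. Its normalized values were 48.9, 82.7, 67.1 and 81.3 in WT1 to WT4 and 85.3, 98.7, 80.7 and 60.3 in KO1 to KO4. The highest value was a knockout and the lowest a control, with the rest mixed. The log2 fold change was 0.22 (SE 0.23, 95% confidence interval -0.28 to 0.72, adjusted p = 0.772). The 9 delta cell genes, Hhex included, had a median of -0.05, with 0 past the adjusted threshold by limma and 0 at p below 0.05. The receptors Lepr (log2 -0.62, SE 0.31) and Ghsr (-0.51, SE 0.27) and the retinol carrier Rbp4 (-0.31, SE 0.16) had the smallest p.

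Jazf1 encodes a zinc-finger protein of the NuA4/TIP60 acetyltransferase complex. Normalized values of Jazf1 were 705, 505, 547 and 420 in WT1 to WT4 and 455, 568, 522 and 464 in KO1 to KO4. WT1 was the highest, and the sign of the fold change rested on it. The log2 fold change was -0.10 (SE 0.15, 95% confidence interval -0.43 to 0.24, adjusted p = 0.865), and 0.036 without WT1. The 16 NuA4/TIP60 genes ranged from -0.26 to 0.18 around a median of -0.03, with 0 past the adjusted threshold by limma and 0 at p below 0.05. The catalytic subunit Kat5 (log2 -0.26, SE 0.14), Morf4l1 (-0.15, SE 0.10) and Ruvbl1 (0.17, SE 0.17) led by p.

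Igf2bp2 encodes an RNA-binding protein that steadies and localizes transcripts such as Igf2. Its normalized values were 25.5, 34.4, 32.5 and 58.8 in WT1 to WT4 and 16.4, 17.5, 1.38 and 37.2 in KO1 to KO4. Of the knockouts, 3 lay below every control and KO4 lay among the controls. The fitted log2 fold change was -1.59 (SE 0.80, 95% confidence interval -3.38 to 0.20, adjusted p = 0.523). Without KO3, which held the equivalent of 1.47 reads, it was -0.70. The highest library held 52.4 reads, the fewest of the 9 genes. Of 11 genes of the IGF2BP family and IGF2 axis, 0 passed by limma and 1 had p below 0.05: Hmga2, a chromatin protein whose transcript Igf2bp2 binds, at 9.79 to 18.1 in the controls and 2.52 to 8.32 in the knockouts without overlap (log2 -1.34, SE 0.46, adjusted p = 0.323). The growth factor Igf1 (log2 1.05, SE 0.51) and Ythdf2, a reader of methylated RNA (-0.18, SE 0.13), followed by p. Over all genes 10.7% had p below 0.05, and 3.68% were lower without overlap.

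Cdkal1 encodes an enzyme that adds a methylthio group to lysine transfer RNA, which aids the reading of proinsulin messenger RNA. Normalized values of Cdkal1 were 294, 300, 179 and 189 in WT1 to WT4 and 375, 273, 200 and 238 in KO1 to KO4. In the controls WT1 and WT2 lay above WT3 and WT4, and the knockouts spanned both levels. The fitted log2 fold change was 0.18 (SE 0.23, 95% confidence interval -0.32 to 0.67, adjusted p = 0.826). The 14 transfer RNA modification genes ranged from -0.45 for Cdk5rap1, a related methylthiotransferase, to 0.35 for Ctu1, which thiolates transfer RNA, with Urm1, the sulfur carrier of that reaction, at -0.14 (SE 0.15), and with 0 past the adjusted threshold by limma and 0 at p below 0.05.

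Adcy5 encodes an adenylyl cyclase, which makes cyclic AMP in response to G-protein signals. Normalized values of Adcy5 were 39.5, 50.2, 53.7 and 38.8 in WT1 to WT4 and 51.5, 46.6, 30.1 and 41.3 in KO1 to KO4. KO3 was the lowest and the other 7 libraries were mixed. The log2 fold change was -0.12 (SE 0.25, 95% confidence interval -0.66 to 0.42, adjusted p = 0.903), 0.037 without KO3 and 0.090 with the acinar level as a covariate. Of 21 cyclic AMP genes, 0 passed by limma and 3 had p below 0.05, all lower, against 6.34% of all genes. They were Rapgef4, a cyclic AMP effector (log2 -0.32, SE 0.12), Gnai3, an inhibitory G-protein subunit (-0.41, SE 0.15), and Adcy1, a calcium-stimulated cyclase (-0.88, SE 0.36).

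Wfs1 encodes wolframin, a membrane protein of the endoplasmic reticulum whose loss causes Wolfram syndrome with diabetes. Its normalized values were 2810, 2882, 2668 and 2639 in WT1 to WT4 and 2655, 2725, 3422 and 2767 in KO1 to KO4. All but KO3 lay within the range of 2639 to 2882. On the log2 scale the difference of Wfs1 was 0.07 (SE 0.11, 95% confidence interval -0.17 to 0.30, adjusted p = 0.870), and -0.017 without KO3. It had the smallest standard error of the 9 genes.

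The endoplasmic reticulum genes set beside Wfs1 lay mostly below 0. Of 23 tested, 22 had a negative log2 fold change, against 8793 of all 15960 genes. By limma 0 passed the adjusted threshold, and the median was -0.25. At p below 0.05, 9 were lower, against 6.34% of all genes. The groups did not overlap for 6, all lower in the knockouts, against 3.68% of all genes. Trib3, a pseudokinase induced by endoplasmic reticulum stress, was at 494, 328, 228 and 208 in WT1 to WT4 and 113, 122, 143 and 147 in KO1 to KO4 (log2 -1.18, SE 0.24, adjusted p = 0.116). Syvn1, a ubiquitin ligase of protein degradation there (-0.53, SE 0.13, 0.154), and Atp2a2, the calcium pump of that membrane (-0.44, SE 0.12), followed.

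**Figure D5:**
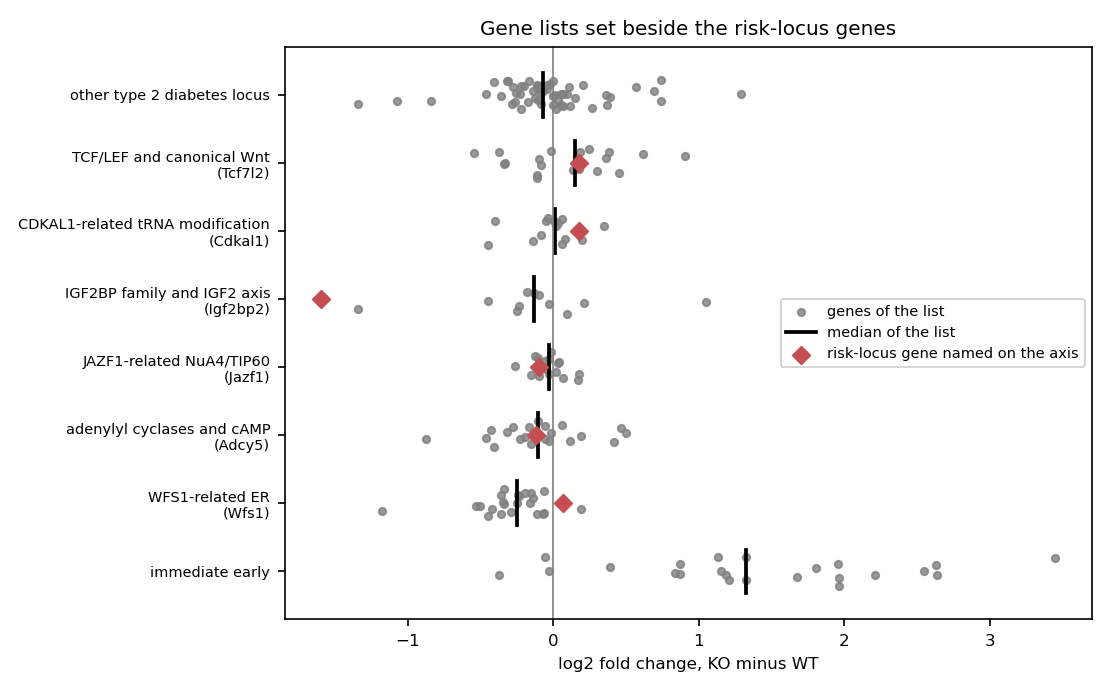
Log2 fold changes (knockout minus control) of the genes in 8 lists (grey), with the median of each list (black bar) and the risk-locus gene each list was set beside (red diamond). The medians run from -0.25 for the Wfs1-related genes to 1.33 for the immediate early genes. Igf2bp2, at -1.59, lies below every gene of its list, with KO3 at the equivalent of 1.47 reads. Without KO3 Igf2bp2 was at -0.70.

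Per kilobase of merged exon, the order of the 9 genes was nearly the same in every library. Merged exons join all annotated transcripts of a gene, from 1 for C2cd4a and for C2cd4b to 22 for Tcf7l2. Genes with many transcripts may therefore be ranked too low beside the pair. The value of C2cd4b may also include reads of M5C1000I18Rik. C2cd4b was at rank 1 in all 8, at 3181 ± 2256 normalized units per kilobase in the controls and 10297 ± 1547 in the knockouts (SD, n = 4 each). Wfs1 stood at rank 2 and C2cd4a at rank 3 in WT1, WT3 and WT4, and C2cd4a stood above Wfs1 in WT2 and in all 4 knockouts. In WT2 these neighbours were at 764 and 761, a difference smaller than the spread of either gene among the controls. Jazf1 was at rank 4 in all 8, Cdkal1, Tcf7l2 and Hhex exchanged ranks 5 to 7, and Adcy5 and Igf2bp2 held the last places.

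Beyond these 9, 55 of 62 other genes of human type 2 diabetes loci were tested. None passed the adjusted threshold by limma, and the median log2 fold change was -0.07. At p below 0.05, 5 were higher and 6 lower, against 4.34% and 6.34% of all genes. The groups did not overlap for 2 higher and 5 lower genes, against 2.67% and 3.68% of all genes. Irs1, an insulin receptor substrate, was higher in every knockout (357 to 447) than in any control (200 to 348; log2 0.74, SE 0.17, adjusted p = 0.137). Gipr, the receptor of an incretin hormone, was at 1324 to 2231 in the knockouts and 881 to 1366 in the controls, with overlap (log2 0.74, SE 0.18, adjusted p = 0.167). Hnf4a, a transcription factor of monogenic diabetes, was lower in every knockout (123 to 206) than in any control (239 to 557; log2 -1.07, SE 0.26, adjusted p = 0.175). The log2 fold changes of C2cd4a and C2cd4b, at 1.74 and 1.91, lay above the highest of these 55 genes, at 1.29.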

How the data were processed

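Islet RNA was extracted with the RNeasy Mini kit, and libraries were made with the KAPA Stranded RNA-Seq kit and sequenced on an Illumina HiSeq by the authors. The submitters' processing notes name cutadapt 1.13, kallisto 0.46.1 and sleuth, with GRCm38 as the reference. The deposited signal is the kallisto estimated reads summed per gene and divided by a size factor per library; it is not whole-number counts, and 58.6 to 65.2% of low values lay within 0.05 of a whole read, so count models were not used. Columns with the authors' own test statistics and fold changes were not used. For the 216 symbols listed on several lines, lines with identical library values were used once (as for Hhex) and differing lines were summed.

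Genes above a value of 1 in 4 or more libraries were fitted on log2(value + 0.5) with limma 3.58.1 in R 4.3.3 (trended, robust variance), group as the only term, with Benjamini-Hochberg adjustment over 15960 genes. This replaces the test of sleuth, whose variance estimates were not used here. The study describes each sample as 1 animal, so p-values measure the spread between mice. Fold changes on this scale understate those of low genes. Named genes were the 9 members, from each list other than the cell type markers (given by counts) the 3 with the smallest p and any past the threshold, the 5 most like each of C2cd4a and C2cd4b over all libraries and after centring, and Sox9; Rab8b, Aph1c, Vps13c and Foxo1 were named after their values were seen. The members and lists were chosen with earlier results of these data known. Alternatives were other pseudocounts, filters and scalings, covariates, a replicate block, plain limma and each library left out. Promoters are from RefSeq (GRCm38.p6), and transcripts and exons from GENCODE.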

Additional observations from a re-analysis of the deposited data

Results flagged for a closer look

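In groups of 4, a library was singled out where its gap to the nearest other divided by the range of the group exceeded Dixon's 95% critical value; chance alone does so in about 1 of 20 groups, and 20 groups were examined. C2cd4a in the controls had a gap of 0.883 of the range, set by WT2 at 1066 against 362 to 445 in the others. Tcf7l2 in the knockouts had 0.854, set by KO1 at 150 beside 158 to 159 in the other 3, so that the whole range was small. Wfs1 in the knockouts had 0.854, set by KO3 at 3422 against 2655 to 2767. KO3 was also the lowest library for Igf2bp2 (1.38) and Adcy5 (30.1) and the highest for C2cd4a (2258) and C2cd4b (16504).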

How the results depend on the processing

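The sign of the log2 fold change was kept under all 18 alternatives for C2cd4a, C2cd4b, Tcf7l2, Cdkal1, Igf2bp2 and Hhex. It turned for Jazf1 without WT1, for Adcy5 without KO3 and with the acinar covariate (0.090), and for Wfs1 without KO3, with ranges over the libraries left out of -0.21 to 0.036, -0.22 to 0.037 and -0.017 to 0.10. C2cd4a passed the threshold without WT2 and with depth as a covariate (log2 1.98, adjusted p = 0.0207), and C2cd4b only without WT2; over the other alternatives adjusted p was 0.0961 to 0.280 for C2cd4a and 0.118 to 0.363 for C2cd4b. With each library left out in turn, the log2 fold change was 1.57 to 2.09 for C2cd4a and 1.70 to 2.33 for C2cd4b, and that of the ratio of C2cd4a to C2cd4b -0.34 to -0.03. The 9 genes past the threshold became 14 with a pseudocount of 1, 1 with equal totals without Ins1 and Ins2, 4 with equal upper quartiles, 3 with the acinar covariate, 27 with the depth covariate, 1 with plain limma, and 1 to 58 with each library left out, where WT2 gave 58, WT4 gave 3, and WT1, KO2, KO3 and KO4 gave 1 each; the cause was not tested. With the replicate number as a block the count was 3, and C2cd4a (log2 1.74, adjusted p = 0.251) and C2cd4b (1.91, 0.206) stayed short of the threshold. Same-numbered samples had correlations of -0.10 to 0.02, and not every sample correlated best with its own number. No pairing by number was therefore seen in these values, and a shared litter or handling was not tested. Depth limits Igf2bp2 most.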
